A study of Homo sapiens with 40 samples.

Results

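LNCaP is a human prostate cancer cell line that expresses the androgen receptor and needs its signal to grow. The 6 arrays described here record how 3 sensitive control lines of LNCaP responded within 24 h to 10 µM MDV3100, the antiandrogen also called enzalutamide. They were chosen by their titles alone, as the replicate 1 arrays of the lines D+E-, D+R- and M+R-, and are 6 of the 40 arrays of the study. Each line had 1 array with MDV3100 and 1 with 0.1% DMSO, the solvent, for the same 24 h. The lines are called control 1 (D+E-), control 2 (D+R-) and control 3 (M+R-), and values for the 3 lines are always given in that order. The labels do not explain these titles, or say whether a line is a clone, what the MDV3100 wells held of DMSO, or whether the arrays came from separate cultures. All lines grew in RPMI-1640 with fetal calf serum and had been plated for 3 days before treatment. Because the labels name no separate cultures, the p-values reflect no more than the spread among these 6 arrays, and that spread may be technical. The other arrays hold replicate 2 of the same lines (6 arrays) and 7 MDV3100-resistant clones (14 arrays in replicate 1), and they enter only where a comparison names them.

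The androgen receptor is a transcription factor of the nuclear receptor family. Bound by androgen it enters the nucleus, binds paired half-sites in enhancers and promoters, and switches on genes of prostate secretion and metabolism, while it holds others down. MDV3100 competes with androgen for the ligand pocket and hinders nuclear entry and DNA binding, so its effect on transcripts can be read from both kinds of target. In LNCaP the receptor also drives the entry into S phase. Serum carries some androgen, so the cells given DMSO were not free of the hormone.

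The values are MAS5 signals, a linear intensity per probe set. Differences are MDV3100 minus DMSO within a line on the log2(signal + 16) scale, where a difference of 1 is a 2-fold change of the offset signal and changes of dim genes are understated. Each gene is represented by its brightest probe set, and 11853 genes passed the filter on dim probe sets. A gene was called at an adjusted p under 0.05 from limma with the line as a block. Only then is it said to have risen or fallen.

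The cells carried the marks of prostate luminal epithelium. All 13 luminal markers with a probe set passed the filter, and their summed signal ran from 21616 to 25406 over the DMSO arrays. Under MDV3100 the sum ran from 14888 to 19947, below every DMSO array. Of the 8 leukocyte markers with a probe set none passed the filter, and their summed signal was 14.3 to 17.7 in DMSO and 15.4 to 25.3 under MDV3100. Only DST passed of the 6 basal markers (sums 239.7 to 346 and 195 to 353) and only VWF of the 7 endothelial ones (sums 80.5 to 149.6 and 47.1 to 111). Of the 12 stromal markers with a probe set 7 passed, and of the 11 neuroendocrine ones 4 passed. The stromal sum was 1771 to 2507 in DMSO and 1602 to 2155 under MDV3100, and its highest member had a mean of 1445 over the 6 arrays. The neuroendocrine sum, most of it from SYT4 and DDC, was 3126 to 5064 and 3076 to 5289. No tested marker of these other cell types was called in either direction, but few were tested and only 1.18% of all genes were called.

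MDV3100 changed 140 of the 11853 genes (1.18%) at this threshold. Of these, 52 rose (0.439%) and 88 fell (0.742%), and all 140 had the same sign in the 3 lines. For 110 of them the 3 MDV3100 arrays lay wholly above or below the 3 DMSO arrays, a share not counted over all genes. Both traits follow in large part from the choice, because the genes were called on these same arrays. Rises ran from 0.77 to 2.20 with a median of 1.02, and 28 were over 2-fold. Falls ran from -0.77 to -2.27 with a median of -0.95, and 41 were over 2-fold. Among the largest falls were those of an ion channel, a kallikrein, an alcohol dehydrogenase, a glutamate receptor subunit and a sialyltransferase. The largest rises were in an opioid receptor and a cytochrome P450. The number of calls depended on the lines: without control 1 it was 50, without control 2 it was 226 and without control 3 it was 1876. It also depended on the offset and the filter, with 6 calls at an offset of 64 and 0 of 19775 genes without a filter, where 2189 had an unadjusted p under 0.05. Without the line as a block limma called 2 genes.

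**Figure D1:**
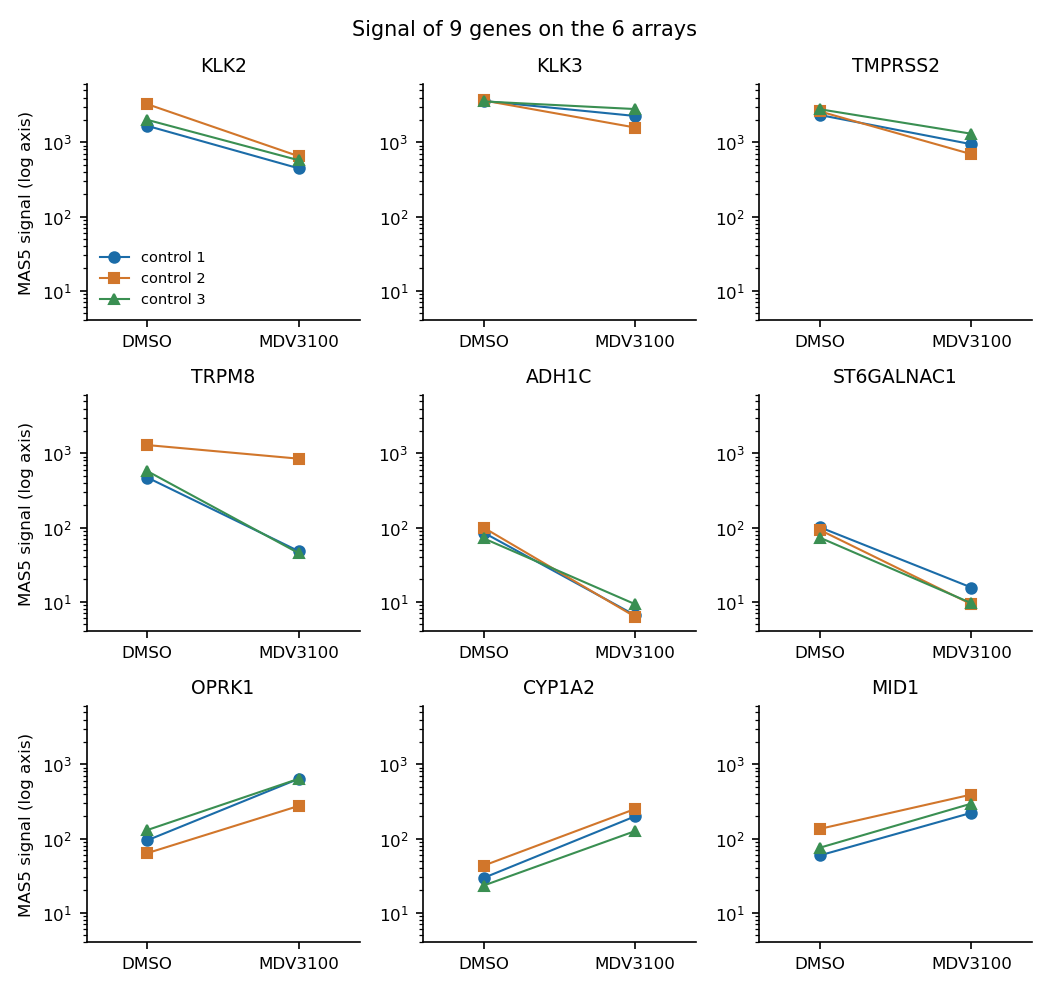
MAS5 signal (log axis) of 9 genes on the 6 arrays, with DMSO on the left and MDV3100 on the right of each panel and a line joining the 2 arrays of a control line. KLK2 fell in every line to between 445 and 648, TRPM8 stayed at 846 in control 2 against 48.0 and 45.1 in the others, and KLK3 lay between 1581 and 2803 under MDV3100.

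Genes that androgen induces in prostate cells were lower under MDV3100 in large part. Of 55 listed members tested, 14 fell and 0 rose, against 0.742% of all genes called lower, and 46 had a negative difference. Their median difference was -0.50, with -0.61, -0.51 and -0.52 in the 3 lines, beside -0.009 for all genes. The list holds textbook targets chosen with earlier results of these arrays known, so its direction is a description. Leaving out a line gave 11, 16 and 29 members called lower (without control 1, control 2 and control 3).

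The secreted proteases led by KLK2 showed how unequal the falls were within 1 family. KLK2, human glandular kallikrein, had signals of 1665, 3264 and 2005 in DMSO and 445, 648 and 572 under MDV3100. Every MDV3100 array lay below every DMSO array, and the difference was -1.98 ± 0.17 (SE, n = 3 lines; adjusted p = 0.000258), a 3.95-fold fall. KLK3 encodes prostate-specific antigen, the serum marker of the clinic. Its signals were 3599.8, 3659 and 3551 in DMSO and 2262, 1581 and 2803 under MDV3100, lower in each line without overlap, and the difference of -0.74 ± 0.19 was not called (adjusted p = 0.0962). KLK4, another secreted kallikrein, went from 445, 544 and 419 to 292, 170.4 and 267, a difference of -0.93 ± 0.21 that was not called (adjusted p = 0.061). Other probe sets of KLK2 gave -1.72 and -1.69, and those of KLK3 -0.70 and -0.67. TMPRSS2, a membrane serine protease whose androgen-driven promoter is fused to ERG in many prostate tumours, went from 2332, 2607 and 2786 to 942, 692 and 1304. It fell in all 3 lines without overlap, by 1.42 ± 0.19 (SE; adjusted p = 0.0044).

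The promoters of KLK3 and KLK2 are shown because these neighbouring genes gave the family's unequal response and because the KLK3 promoter holds a known receptor-binding element. They are RefSeq windows on GRCh38.p14, plus strand, from 250 bases before to 50 after the start site, with chr19:50854665-50854964 for KLK3 and chr19:50873189-50873488 for KLK2. Capitals mark the steroid receptor half-site AGAACA, searched on both strands, and in KLK2 the 6 bases aligned with it.
KLK3: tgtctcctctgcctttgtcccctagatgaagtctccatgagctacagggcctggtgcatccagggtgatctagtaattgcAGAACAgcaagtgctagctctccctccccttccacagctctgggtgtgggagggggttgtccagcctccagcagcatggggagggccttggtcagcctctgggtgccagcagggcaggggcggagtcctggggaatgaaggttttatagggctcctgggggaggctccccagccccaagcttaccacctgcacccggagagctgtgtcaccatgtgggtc
KLK2: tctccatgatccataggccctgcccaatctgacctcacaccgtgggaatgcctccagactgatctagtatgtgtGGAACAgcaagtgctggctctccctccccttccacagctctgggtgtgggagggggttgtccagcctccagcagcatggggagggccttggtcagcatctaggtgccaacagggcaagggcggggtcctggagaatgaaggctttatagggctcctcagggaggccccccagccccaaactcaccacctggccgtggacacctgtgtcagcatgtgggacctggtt
The half-site of KLK3 began 170 bases before the start site. No exact match to AGAACA lay in the KLK2 window, which does not show that the receptor has no site there, and binding was not tested. The closest stretch began 176 bases before its start site and differed at 1 of the 15 bases compared, A1G, with the KLK3 base first and positions counted from the first base of the half-site. Of all 27305 promoter windows, 14.9% held the half-site, as did 8.76% of the 9750 tested genes with a window, 5 of 50 androgen-induced genes (10.0%) and 7 of 71 genes called lower (9.86%). The enhancers that bind the receptor far from start sites lie outside these windows, so the shares describe only the letters near the starts.

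Some membrane and vesicle genes of the luminal cell fell as well. TRPM8, a cation channel that opens to cold and menthol, had the largest fall of all, -2.27 ± 0.38 (SE; adjusted p = 0.0176). Its signals were 472, 1291 and 576 in DMSO and 48, 846 and 45.1 under MDV3100, so that control 1 and control 3 lost most of the signal while control 2 stayed above the DMSO arrays of both. The differences were -2.93, -0.60 and -3.28. SLC45A3, the prostate membrane protein prostein, went from 1081, 829.9 and 887 to 463, 208 and 205, a fall of 1.72 (adjusted p = 0.00133) without overlap. RAB3B, a small GTPase of secretory vesicles, fell from 259, 210.4 and 235 to 144, 72.9 and 106 (-1.06 ± 0.18; adjusted p = 0.016). STEAP1 and STEAP2, membrane metalloreductases of the same epithelium, were not called, with differences of -0.17 and 0.20.

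Enzymes and signalling proteins made up most of the remaining falls in the list. PMEPA1, an inhibitor of TGF-beta signalling, went from 1918, 1664 and 1768 to 762, 668 and 886 (-1.20 ± 0.17; adjusted p = 0.00602). The prostaglandin pair PTGER4, a receptor of prostaglandin E2, and HPGD, the enzyme that inactivates prostaglandins, fell by 1.25 and 1.19. NNMT, which methylates nicotinamide, went from 52.5, 113 and 87.8 to 11, 22.2 and 23.3 and fell by 1.5 (adjusted p = 0.00133). C1orf116, also named specifically androgen-regulated gene, fell by 1.52, and F5, coagulation factor V, fell by 1.11 from 53.8, 41.9 and 44.4 to 12.6, 12.1 and 14.3. HOMER2, a scaffold of postsynaptic receptors, and SPDEF, an ETS factor of prostate epithelium, fell by 0.90 and 0.85. Without control 1 the adjusted p of HPGD, F5, HOMER2 and SPDEF was 0.281, 0.078, 0.197 and 0.349, and without control 2 that of SPDEF was 0.0907.

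Several standard targets were not called. FKBP5, a cochaperone of steroid receptors, had 1838, 1694 and 1788 in DMSO and 1079, 1042 and 1254 under MDV3100. The groups did not overlap, yet the difference of -0.65 ± 0.16 had an adjusted p of 0.0873. CAMKK2, a calcium-dependent kinase, and the kinase STK39 had differences of -0.61 and -0.81 (adjusted p = 0.121 and 0.0528). NDRG1 and TPD52 were at -0.23 and -0.027. The highest member was PLA2G2A, a secreted phospholipase, at 0.50 (adjusted p = 0.185).

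Of the targets that androgen and glucocorticoid receptors share, 2 of 12 fell and 0 rose, against 0.742% of all genes called lower, with a median of -0.15. ZBTB16, a zinc finger repressor also called PLZF, went from 288, 338 and 266 to 101, 93.2 and 133, without overlap (-1.33 ± 0.19; adjusted p = 0.00602). CEBPD, a transcription factor of acute responses, went from 161, 122 and 112 to 64.7, 54.9 and 63.9 (-0.93 ± 0.17; adjusted p = 0.0275, and 0.343 without control 1). SGK1, DUSP1, KLF9, TSC22D3 and MT2A, which answer glucocorticoid in many cells, lay between -0.26 and 0.11 and were not called.

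Genes that androgen holds down went the other way in part. Of 20 tested, 4 rose and 1 fell, against 0.439% and 0.742% of all genes, and 15 had a positive difference. The median was 0.28, with 0.27, 0.33 and 0.34 in the lines. OPRK1, the kappa opioid receptor, had the largest rise of all genes: 94.8, 63.7 and 130.3 in DMSO and 639.8, 276 and 639.5 under MDV3100. The lowest MDV3100 array was above the highest DMSO array, and the difference was 2.20 ± 0.18 (SE; adjusted p = 0.000235), a 4.6-fold rise. AMIGO2, a neuronal adhesion protein, went from 21.7, 36.6 and 22.4 to 126, 165 and 55.5, a rise of 1.53 (adjusted p = 0.00511). PKIB, an inhibitor of protein kinase A, rose by 1.26 from 208, 172 and 204 to 583, 599 and 328. SI, the intestinal sucrase-isomaltase, rose by 1.11, and the phospholipase PLA1A fell by 0.94 (adjusted p = 0.0339, and 0.281 without control 1).

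The glucuronidating enzymes UGT2B15 and UGT2B17, which inactivate androgens, were not called. UGT2B15 had 1577, 1239.7 and 1654 in DMSO and 1849.8, 1559.5 and 2268 under MDV3100, higher in each line but overlapping (0.34 ± 0.16; adjusted p = 0.361). UGT2B17 had 1295, 732 and 1254 and 1643, 744 and 1021, with no common direction (0.023 ± 0.18). These 2 enzymes are close in sequence, and probe sets may read both. CAMK2N1, an inhibitor of calcium/calmodulin kinase II, was at 0.17.

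**Figure D2:**
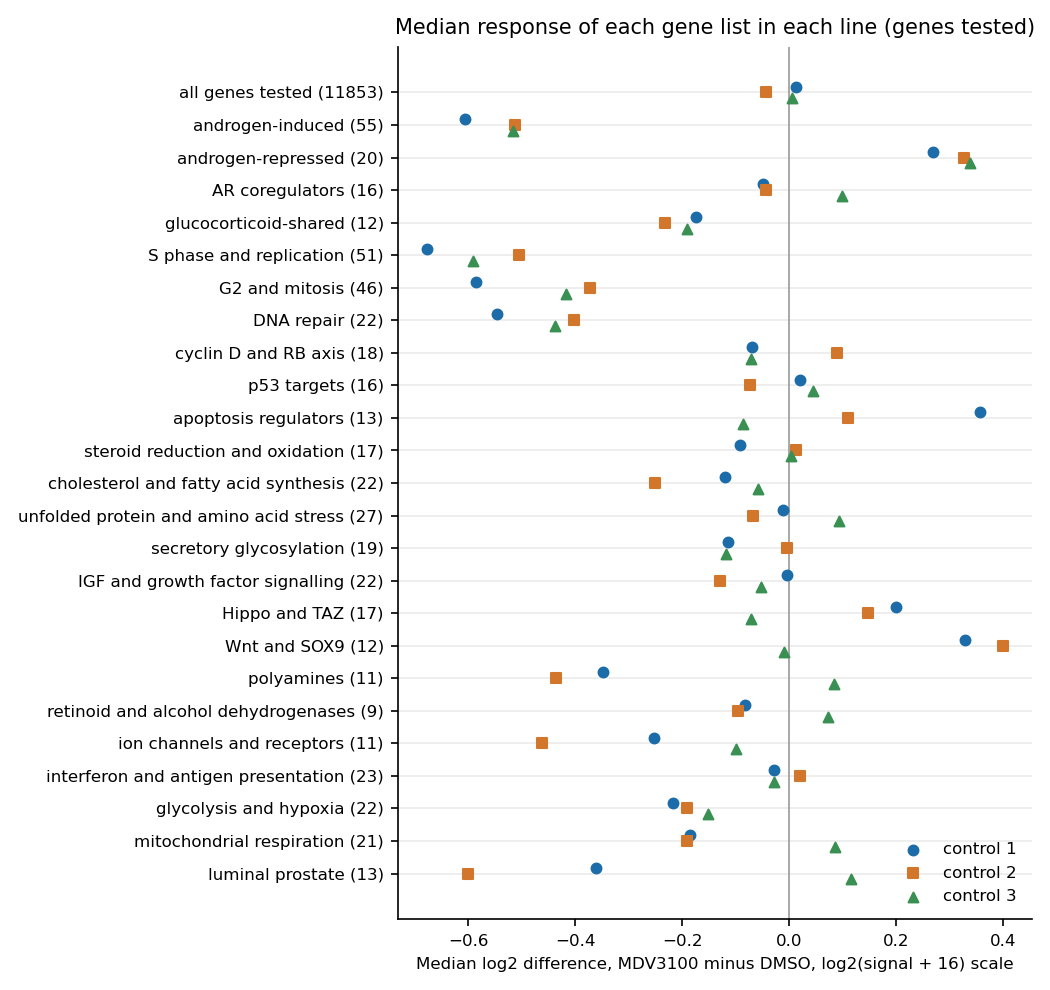
Median log2 difference (MDV3100 minus DMSO) of each gene list with at least 9 tested genes in control 1 (circles), control 2 (squares) and control 3 (triangles), with the number of tested genes in parentheses and a vertical line at 0. The androgen-induced, S phase, mitosis and DNA repair lists lay between -0.68 and -0.37 in every line and the androgen-repressed list between 0.27 and 0.34, while the luminal list split between -0.60 in control 2 and 0.12 in control 3.

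A drug-metabolising enzyme rose almost as far as OPRK1. CYP1A2, a cytochrome P450 of the aryl hydrocarbon receptor's target set, had 29.5, 43.2 and 23.3 in DMSO and 199, 250.5 and 126 under MDV3100. All MDV3100 arrays were above all DMSO arrays, and the difference was 2.09 ± 0.17 (SE; adjusted p = 0.000235), a 4.26-fold rise. Its only named probe set is of the kind marked as able to hybridise to related transcripts. Of the receptor's list 6 members passed the filter, and CYP1A2 was the only call, where 1.18% of all genes were called. AHR, the receptor itself, had 25.5, 36.5 and 25.6 and 96, 103 and 29.6, with higher signals in control 1 and control 2 and little difference in control 3 (0.91 ± 0.23; adjusted p = 0.0873). The repressor AHRR and the other classic target enzymes CYP1A1 and CYP1B1 lay below the filter, TIPARP and NQO1 were at 0.10 and -0.15, and the amino acid transporter SLC7A5 at 0.70 (adjusted p = 0.0761). The CYP1A2 promoter window had no match to GCGTG, the core of the receptor's sites, on either strand, while 51.3% of the windows of tested genes and 70.0% of the 10 windows of this list had one.

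Among the other largest rises were ubiquitin ligases, adhesion proteins and receptors. MID1, a ubiquitin ligase bound to microtubules, went from 59.3, 135 and 75.3 to 222, 391.6 and 296, without overlap (1.62 ± 0.17; adjusted p = 0.000742). Its 2 other probe sets gave 1.28 and -0.08. LTN1, a ligase that clears stalled nascent chains from ribosomes, went from 287, 228 and 249 to 736, 918 and 672 (1.54), and its other probe set gave 0.33. KCNU1, a potassium channel of sperm, rose by 1.42 from 23.8, 8.7 and 30.1 to 86.3, 53.2 and 106. IL1RN, the natural antagonist of interleukin-1, rose by 1.4, and MYLK, myosin light chain kinase, by 1.28. PGAP1, which remodels glycolipid anchors, rose by 1.30, PLD1, a phospholipase, by 1.19, and CBLN2, a synaptic organiser, by 1.16. LOC441081, an uncharacterised transcript, rose by 1.14 (adjusted p = 0.0957 without control 1).

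Falls outside the androgen lists were of similar size. ADH1C, a class I alcohol dehydrogenase that also oxidises retinol, went from 85.7, 100 and 71.7 to 6.6, 6.3 and 9.3. The signal under MDV3100 was under 10 in all 3 lines, and the difference was -2.11 ± 0.18 (SE; adjusted p = 0.000235). ST6GALNAC1, the sialyltransferase that makes the tumour antigen sialyl-Tn, went from 101, 93 and 73.3 to 15.6, 9.3 and 9.6, also without overlap (-1.93 ± 0.17; adjusted p = 0.000238). AADAT, an aminotransferase of kynurenine and aminoadipate, fell by 1.55. TM4SF1, a surface protein of the tetraspanin-like family, fell by 1.59 from 1095, 740.2 and 1161 to 349, 236 and 378. NAV3, a neuron navigator, and STYXL2, a pseudophosphatase, fell by 1.65 and 1.49. PSLNR, a long noncoding RNA of prostate, had 281, 15.5 and 121 in DMSO and 22.6, 10.6 and 16.3 under MDV3100, so that its fall of 1.76 rested mainly on control 1 and control 3 (-2.94, -0.24 and -2.08). Without control 1 it was -1.16 (adjusted p = 0.0191).

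Transcripts of DNA replication were lower nearly throughout. Of 51 S phase genes 11 fell and 0 rose, against 0.742% of all genes called lower, and 50 had a negative difference. The median was -0.65, with -0.68, -0.51 and -0.59 in the lines. The array measures RNA from the whole culture, so fewer cells in S phase and less of the RNA per cell cannot be told apart. The count of called members was 2 without control 1, 18 without control 2 and 28 without control 3.

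Several of the calls lay in origin licensing and firing and at the fork. MCM3, a subunit of the MCM helicase, went from 528, 514 and 574 to 263, 281 and 300.1, a fall of 0.90 with nearly the same size in each line (-0.96, -0.84 and -0.90; adjusted p = 0.0247). MCM5 fell by 0.94 and MCM4 by 1.08, although other probe sets of MCM4 ranged from -0.89 to 0.41. ORC1, of the origin recognition complex, went from 83.3, 73.9 and 81 to 25, 18.7 and 54.7 (-1.04), and MCM10 and CDC45, which fire the origin, fell by 0.83 and 0.80. At the fork, RFC3 of the clamp loader, RPA2 of the single-strand binding complex and CHAF1A of the chromatin assembly factor fell by 0.83, 0.88 and 0.92. CLSPN, the checkpoint adaptor claspin, fell by 1.17, but its other probe set gave -0.12. The largest fall was in FAM111B, a protease that rises in S phase, from 507, 561 and 522 to 98.7, 267 and 217 (-1.48 ± 0.22; adjusted p = 0.00907). Of these 11 only CLSPN and FAM111B were still called without control 1.

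Other members gave smaller or mixed differences. The clamp PCNA was at 0.17, 0.29 and -0.91 in the 3 lines, lower in control 3 alone. CDC6 was at -0.82, MCM7 at -0.73 and the transcription factor E2F1 at -0.71 (adjusted p = 0.0687, 0.108 and 0.102). RRM2, the regulated subunit of ribonucleotide reductase, and TYMS, thymidylate synthase, were at -0.34 and -0.48.

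Most mitotic genes had negative differences, and few were called. Of 46 tested 3 fell and 0 rose, against 0.742% of all genes called lower, and 42 had a negative difference and the median was -0.44 (-0.59, -0.37 and -0.42). The count was 0 without control 1, 5 without control 2 and 22 without control 3. KIF23, a kinesin of the central spindle, went from 97.6, 118 and 91.5 to 40.3, 49.8 and 53 (-0.89 ± 0.17; adjusted p = 0.0315). CEP55, which recruits the abscission machinery, went from 1356, 1340.4 and 1379 to 602, 779 and 819 and fell by 0.89, and the kinesin KIF20A fell by 0.81 (adjusted p = 0.0566 without control 2). All 3 were lower in each line without overlap. MKI67, the proliferation antigen Ki-67, had 231, 385 and 239 in DMSO and 95.7, 113 and 268 under MDV3100, so control 1 and control 2 were lower and control 3 was not (-0.87 ± 0.27; adjusted p = 0.158). The kinetochore genes NUF2 and NDC80 had differences of -0.93 and -0.91 that were not called. CKAP2, a spindle protein, was highest in the list at 0.63, with 0.69, 1.30 and -0.11 in the lines.

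**Figure D3:**
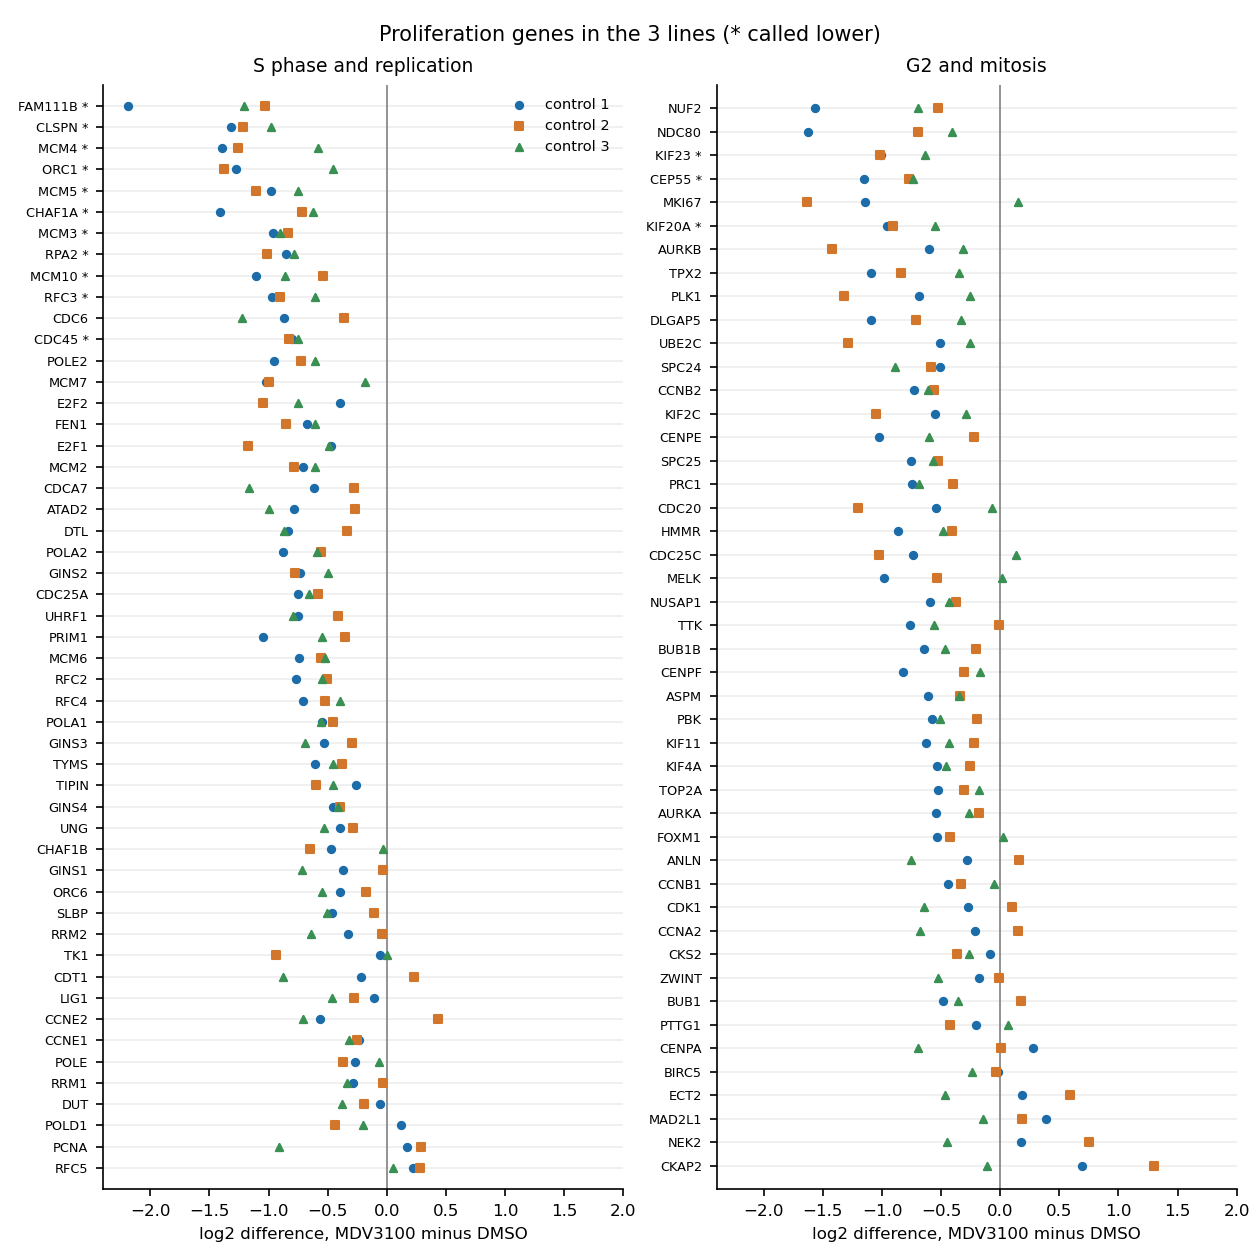
Log2 difference (MDV3100 minus DMSO) of every tested S phase gene (left) and mitosis gene (right) in control 1 (circles), control 2 (squares) and control 3 (triangles), ordered by the mean of the lines, with an asterisk for genes called lower. In the left panel 50 of 51 means and in the right panel 42 of 46 lay below 0, and MKI67, PCNA and CKAP2 show control 3 apart from the other lines.

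Promoter windows of MCM3 and KIF23 are shown as called members of the S phase and mitosis lists, with the elements known to time such genes in capitals: an E2F site (TTTCGCGC or TTTGGCGC) and the CHR element TTTGAA, each searched on both strands. They are RefSeq windows on GRCh38.p14, chr6:52284693-52284992 on the minus strand and chr15:69414099-69414398 on the plus strand.
MCM3: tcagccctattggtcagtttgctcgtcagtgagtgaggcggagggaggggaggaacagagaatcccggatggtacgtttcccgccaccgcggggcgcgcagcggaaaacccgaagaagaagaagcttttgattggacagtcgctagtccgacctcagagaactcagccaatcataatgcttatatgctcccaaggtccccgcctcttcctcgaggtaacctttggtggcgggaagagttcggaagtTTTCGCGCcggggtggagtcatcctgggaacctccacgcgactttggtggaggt
KIF23: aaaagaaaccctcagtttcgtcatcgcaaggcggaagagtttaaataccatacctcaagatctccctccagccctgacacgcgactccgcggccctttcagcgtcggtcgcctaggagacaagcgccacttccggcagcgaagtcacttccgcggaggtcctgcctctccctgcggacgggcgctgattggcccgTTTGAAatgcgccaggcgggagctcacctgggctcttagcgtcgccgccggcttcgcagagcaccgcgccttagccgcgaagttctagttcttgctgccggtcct
An E2F site lay in 14 of 44 S phase promoters (31.8%) and in 2.03% of the promoters of tested genes. The CHR element lay in 26 of 39 mitosis promoters (66.7%) and in 9.56% of the promoters of tested genes. Among the 11 called S phase genes, 7 had a window and 1 of these, MCM3, whose window is printed here, held an E2F site. Of the 71 genes called lower with a window, 3 held an E2F site (4.23%) and 13 a CHR element (18.3%). These matches describe letters near the start.

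Most genes of DNA repair had negative differences as well, and few were called. Of 22 tested 3 fell and 0 rose, against the same 0.742%, and 20 had a negative difference and the median was -0.49. DDIAS, a suppressor of apoptosis after DNA damage, went from 231, 276 and 212 to 60.9, 121 and 68.6, without overlap (-1.4 ± 0.18; adjusted p = 0.00297). EXO1, an exonuclease of mismatch repair and recombination, and BLM, the Bloom helicase, fell by 1.04 and 0.80, with adjusted p = 0.21 and 0.675 without control 1. BRCA1 and the checkpoint kinases CHEK1 and CHEK2 had differences of -0.55, -0.47 and -0.75 that were not called. The count of called members was 1, 4 and 10 without control 1, control 2 and control 3.

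Upstream of replication the cyclin D and RB axis had 1 call among 18 genes, a rise, against 0.439% of all genes called higher. CDKN2B, the CDK4 inhibitor p15, rose from 30.8, 13.8 and 22 to 65.4, 53.7 and 40.6 (0.87 ± 0.18; adjusted p = 0.0445, and 0.205 without control 1 and 0.113 without control 2). Cyclin D1, CCND1, had 1631, 1935 and 1773 in DMSO and 1236, 1446 and 1688 under MDV3100, lower in each line by less than the call required (-0.29 ± 0.17; adjusted p = 0.438). CDKN1A, the inhibitor p21, was at -0.11. Some uncalled members of the axis split the lines. RBL2, the pocket protein p130 of resting cells, went from 458, 308 and 374 to 1107, 1111 and 378, well above DMSO in control 1 and control 2 and level in control 3. SKP2, which marks p27 for destruction, mirrored it with 1802, 2132 and 1969.6 in DMSO and 819.6, 1022 and 1933 under MDV3100, and CDKN1B, p27 itself, had 637, 464 and 531 and 923, 1087 and 504. None of these 3 was called (adjusted p = 0.103, 0.138 and 0.268).

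The luminal marker list gave 4 falls among 13 genes, against 0.742% of all genes called lower. They were KLK2, SLC45A3, TMPRSS2 and TRPM8, all of them also in the androgen-induced list. The structural markers of the same epithelium were not called. Keratins KRT8 and KRT18 were at -0.090 and -0.31, the adhesion genes EPCAM and CDH1 at 0.11 and -0.22, and the lineage factor HOXB13 at 0.18. FOLH1, prostate-specific membrane antigen, was at 0.14, and ACP3, prostatic acid phosphatase, had 633, 487 and 561 and 806, 686 and 821, higher in each line but not called (0.45 ± 0.16; adjusted p = 0.216).

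Among membrane receptors and channels, calls lay in both directions, with 4 falls and 2 rises among 11 tested genes, against 0.742% and 0.439% of all genes. Besides TRPM8, PTGER4 and OPRK1, which the androgen lists also hold, these were GRIN3A, KCNMA1 and ADRA2A. The list was chosen with earlier results of these arrays known, so its share of calls is a description. GRIN3A, a subunit of NMDA glutamate receptors, went from 329, 96.1 and 357 to 80.8, 19.5 and 58.6 (-1.94 ± 0.18; adjusted p = 0.000401), with -0.54 in its other probe set. KCNMA1, the large calcium-activated potassium channel, fell by 0.78 from 964, 748 and 811 to 602, 448 and 409 (adjusted p = 0.31 without control 1). ADRA2A, an inhibitory adrenergic receptor, rose by 1.33 from 341, 902 and 233 to 1193, 1512 and 687, with overlap because control 2 was high on both arrays.

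In growth and lineage signalling the calls were single genes in each list, where 1.18% of all genes were called. WWTR1, the Hippo coactivator TAZ, went from 71.8, 39.8 and 64.1 to 8.5, 1.3 and 10.5, without overlap, and its other probe sets gave -1.51 and -1.35 (-1.71 ± 0.16; adjusted p = 0.000467). It was the 1 call among 17 Hippo genes. AMOTL2, an angiomotin that holds the coactivators back, had 137, 125 and 173 and 416, 389 and 103, higher in control 1 and control 2 and lower in control 3, and was not called (adjusted p = 0.308). FGFR3, a fibroblast growth factor receptor, fell by 0.81 and was the only call among 22 genes of growth factor signalling (adjusted p = 0.26 without control 1). IGF1R had 221, 142 and 214 and 145, 131 and 92.1 (adjusted p = 0.196). WNT5A, a noncanonical Wnt ligand, rose from 139, 123 and 148 to 383, 328 and 256 (1.14 ± 0.18; adjusted p = 0.0138, and 0.078 without control 1). It was the only call among 12 Wnt genes, where SOX9 (514, 1528 and 528 to 959, 2133 and 946) and LEF1 (341, 246 and 314 to 616, 387 and 539) were higher in each line and missed the threshold (adjusted p = 0.0681 and 0.0581).

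Metabolic and transport lists gave 1 or 2 calls each, where 1.18% of all genes were called. The lists are small, and these calls made up 4.55% of lipid synthesis genes and 10.5% of glycan synthesis genes. They made up 11.1% of the dehydrogenases and 28.6% of the efflux transporters. ELOVL7, an elongase of fatty acids, fell from 792, 784 and 566 to 414, 561 and 172 and was the 1 call among 22 lipid synthesis genes (-1.0 ± 0.21; adjusted p = 0.0465, and 0.0624 without control 1). Glycan synthesis had 1 fall, ST6GALNAC1, and 1 rise among 19 genes. The rise was MAN1A1, a Golgi mannosidase, from 71.5, 48.3 and 61.4 to 251, 196 and 127 (1.4), with 0.53 in its other probe set. ADH1C was the only call among 9 alcohol and retinoid dehydrogenases, where ALDH1A3 was at -0.75 and RDH10 at 0.56 (adjusted p = 0.0873 and 0.131). Among 7 efflux transporters ABCG2, a pump of drugs and porphyrins, rose from 28.1, 22.9 and 14.8 to 54.8, 49.9 and 68.5 (0.97 ± 0.19; adjusted p = 0.0347). ABCA1, which exports cholesterol, rose by 1.05 (adjusted p = 0.0311), and the related ABCG1 had 332, 371 and 455 and 941, 829.9 and 483, near level in control 3 (adjusted p = 0.103). Neither ABCG2 nor ABCA1 was called with quantile normalization or with an offset of 32.

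The following lists had 0 called members by limma at this threshold, where 1.18% of all genes were called: 16 coregulators of the receptor, 16 p53 targets, 13 apoptosis regulators, 4 glucuronidation genes and 17 steroid-converting enzymes. The same held for 27 genes of protein and amino acid stress, 11 of polyamines, 23 of interferon response, 22 of glycolysis and 21 of respiration. Their medians ran from -0.21 for polyamines to 0.18 for glucuronidation. FOXA1, the pioneer factor that opens receptor sites, had 548, 443 and 438 in DMSO and 842, 980.0 and 475 under MDV3100 (adjusted p = 0.177). CYP11A1, which makes pregnenolone from cholesterol, had 54.3, 5.5 and 59.4 and 11.9, 1 and 18.6, lower in each line and just short of a call (-0.93 ± 0.20; adjusted p = 0.0532). SESN1, a p53 target of the sestrin family, had 756, 653 and 940.4 and 1143, 1238 and 1426 (adjusted p = 0.0765). ODC1, the rate-limiting enzyme of polyamine synthesis, had 1870.4, 2073 and 1917 and 1356, 1361 and 2167, lower in control 1 and control 2 alone.

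The 3 lines did not respond alike over all genes. The responses of control 1 and control 2 correlated at r = 0.64 (Spearman's rho 0.59), those of control 1 and control 3 at 0.23 (0.12), and those of control 2 and control 3 at -0.01 (-0.10). These are correlations across 11853 genes of single arrays and are given without a test. Genes over 2-fold higher and lower numbered 197 and 121 in control 1, 420 and 165 in control 2 and 25 and 56 in control 3, and 6 higher and 19 lower were shared by all 3. Of the 140 called genes, control 3 had the smallest response for 86. In DMSO, 26 genes differed over 2-fold between control 1 and control 3, 202 between control 1 and control 2 and 231 between control 2 and control 3. So the pair most alike before the drug, control 1 and control 3, was not the pair with the closest responses.

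**Figure D4:**
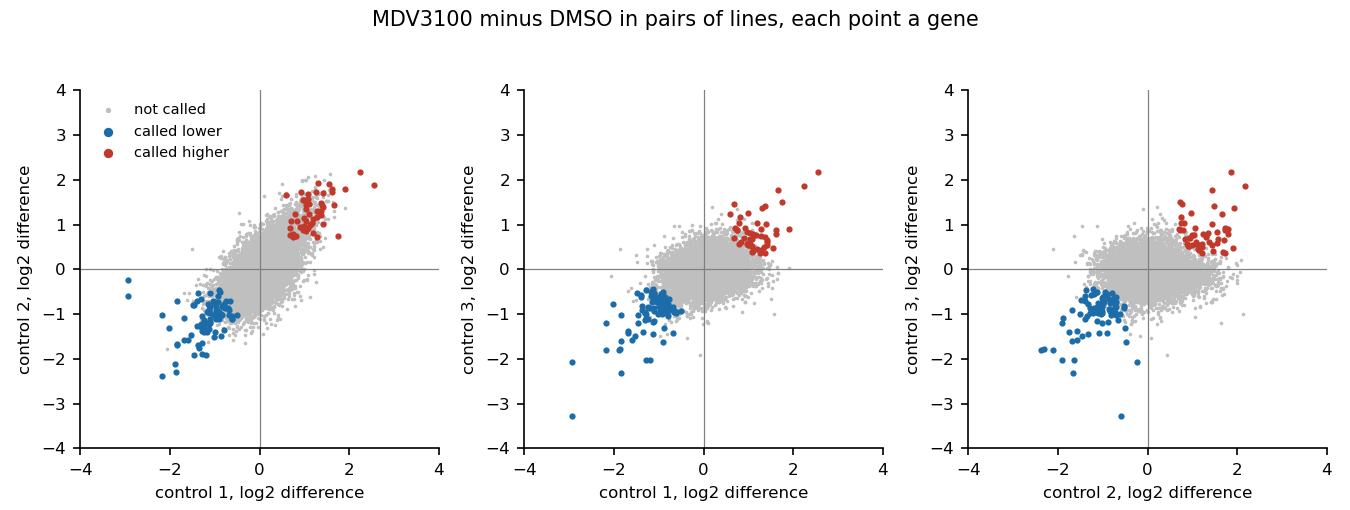
Log2 difference (MDV3100 minus DMSO) of each of the 11853 genes in 1 line against another, for the 3 pairs of lines, with genes called higher in red, called lower in blue and others in grey. The grey cloud stretches along the diagonal for control 1 and control 2 (r = 0.64). It does not for control 2 and control 3 (r = -0.01). The called genes lie in the same quadrants in all 3 panels, which follows in large part from their choice on these same differences.

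XBP1 gives a view of that split. This transcription factor of the unfolded protein response had 282, 280.0 and 275 in DMSO and 843, 838 and 252 under MDV3100. It was about 3 times as high in control 1 and control 2 and level in control 3, and was not called (0.98 ± 0.28; adjusted p = 0.123). NCOA2, a receptor coactivator, went from 638, 641 and 515 to 1174, 1468 and 547, and MYC from 1341, 1441 and 1353 to 666, 842 and 1671, again with control 3 apart from the others. In the brightest 25% of genes the median difference was -0.14 in control 1, -0.13 in control 2 and 0.03 in control 3, and in the dimmest 25% it was 0.17, 0.02 and 0.06. Control 3 was thus apart among bright genes and control 1 among dim ones. The ratio of actin 3' to 5' signal, which rises as RNA or its copies become shorter, was 4.08, 3.18 and 4.12 in DMSO and 4.26, 6.59 and 4.50 under MDV3100, higher under MDV3100 in each line and most in control 2. With that ratio as a covariate 111 genes were called, 34 higher and 77 lower, of which 69 were among the 140. The androgen-induced count stayed at 14, the S phase count was 9 and the mitosis count 3. The part of RNA quality in the lines' differences was not tested.

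The same lines in replicate 2 gave smaller medians for the called genes. Arrays of the same label differed between the replicates before any drug: UGT2B17 had DMSO signals of 1295, 732 and 1254 in replicate 1 and 988, 60.3 and 185 in replicate 2. In this gene control 2 and control 3 of replicate 2 thus stood apart from the arrays of the same label. The values below compare arrays as labelled. Of the 52 genes that rose, 48 had a positive mean response in replicate 2, with a median of 0.59, and of the 88 that fell 86 had a negative one, with a median of -0.57. These genes were picked for their size in replicate 1, so smaller values elsewhere follow in part from the choice. The difference between replicates, tested with limma on the 6 responses, was called for 0 genes (0.0%), with 653 at an unadjusted p under 0.05. Without control 3 it was called for 804. TRPM8 (-2.27), ADH1C (-2.17), ST6GALNAC1 (-2.11), WWTR1 (-1.82) and CYP1A2 (1.85) had replicate 2 responses close to those of replicate 1. KLK2 (-1.02), GRIN3A (-0.78) and MAN1A1 (0.59) had smaller ones. The S phase median was -0.30 in replicate 2 and the androgen-induced median -0.56.

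The 7 resistant clones of replicate 1 are the nearest cultures to set beside these lines. All 52 rises and all 88 falls were smaller in the mean of the clones, where the choice of genes acts in the same way, and the medians were 0.31 and -0.41. The difference of responses, control lines minus clones, was called for 1 gene (0.00844%), with 1868 at an unadjusted p under 0.05. That gene was OPRK1, with a mean response of 0.72 in the clones and a difference of 1.48 ± 0.19 (SE; 3 lines against 7 clones, adjusted p = 0.0226). Without control 1 no gene was called, without control 2 it was 1 gene and without control 3 it was 1701 genes. ADH1C (-2.11) and CYP1A2 (1.73) had clone responses near those of the control lines, with differences of -0.008 and 0.36, and KLK2 (-1.03) and TMPRSS2 (-0.45) differed by -0.96 and -0.97 without a call (adjusted p = 0.436 and 0.231).

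**Figure D5:**
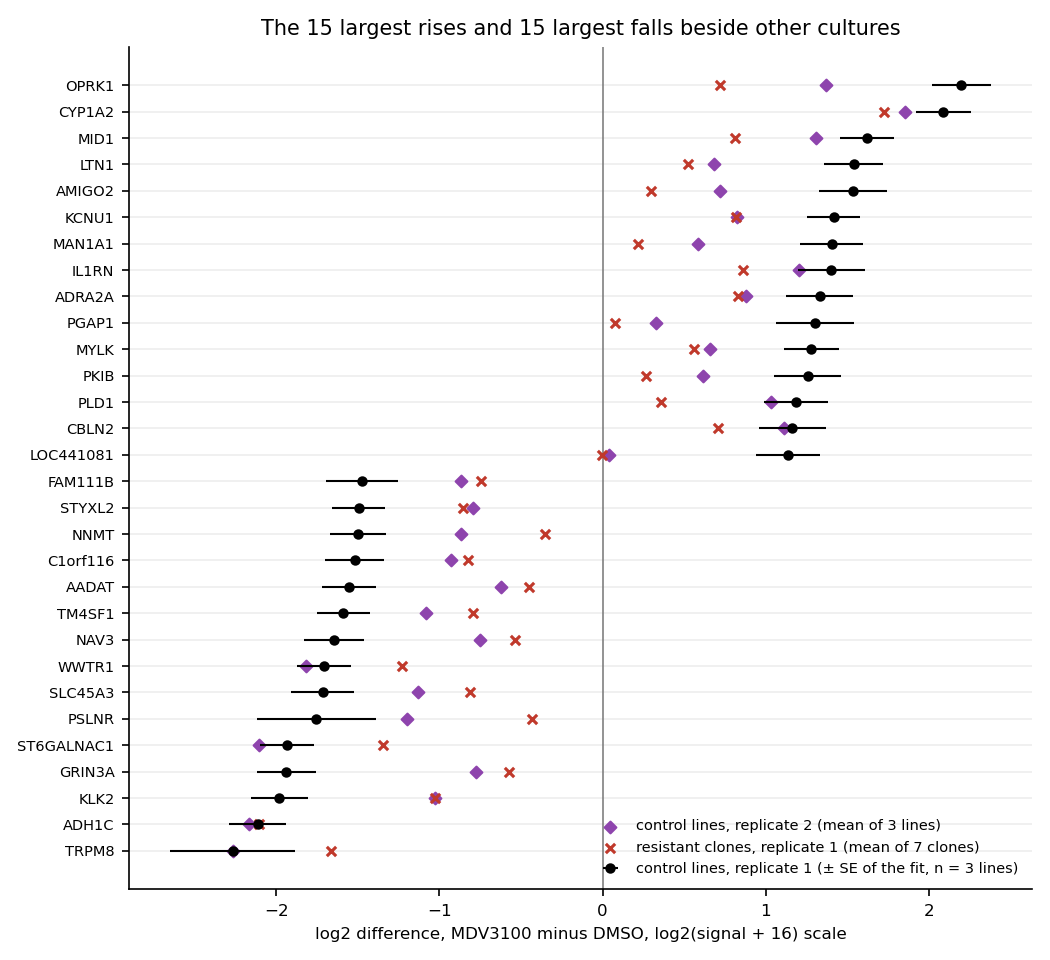
Log2 difference (MDV3100 minus DMSO) of the 15 largest rises and 15 largest falls in the 3 control lines of replicate 1 (black, mean ± SE of the fit), in the same lines of replicate 2 (diamonds, mean of 3) and in the clones of replicate 1 (crosses, mean of 7). ADH1C and CYP1A2 have the 3 marks close together at the ends of the scale, and OPRK1 runs from 2.20 to 0.72.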

How the data were processed

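RNA of LNCaP cells was hybridised as biotin-labelled cDNA to Affymetrix arrays. Per the submitters' processing notes the authors made the values with MAS5, whose version is not given in the sources used here, and the deposited unit is linear signal intensity per probe set. Its mean after trimming 2% at each end was 150.0 on every array, so the values were used as scaled, and 0 columns were left unmapped. Precision is set by how few arrays there are.

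Of 54675 probe sets, 41097 had 1 gene in the platform annotation, 1801 several and 11777 none, and 42 gene identifiers had no match in the RefSeq table. Probe sets with a mean log2(signal + 16) of at least 4.815 over the 40 arrays, a signal of 12.1, were kept (27338), and the brightest of a gene represented it. Differences were tested with limma 3.58.1 in R 4.3.3, the line as a block (2 residual and 9.77 prior degrees of freedom), with Benjamini-Hochberg adjustment over 11853 genes. limma also compared these responses with those of replicate 2 and of the clones. The fit was also run on simulated data with independent noise for each gene, which cannot show how many calls on these arrays are false. Promoter windows came from RefSeq on GRCh38.p14.

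The members, lists and tests were chosen with earlier results of these data known. Genes were named by a rule: the 15 largest rises and falls, a set of standard targets, every called list member and up to 6 members of each list. Uncalled members outside it (STEAP1, STEAP2, STK39, CAMKK2, NDRG1, TPD52, PLA2G2A, KLF9, TSC22D3, MT2A, PCNA, CDC6, MCM7, E2F1, RRM2, TYMS, CKAP2, BRCA1, CHEK1, KRT8, KRT18, EPCAM, CDH1, HOXB13, FOLH1 and MYC) were chosen after their values were seen. One gene of the rule is not reported here. Alternatives changed the offset, filter, scaling, block, variance model, probe set rule and the lines included.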

Additional observations from a re-analysis of the deposited data

Results flagged for a closer look

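OPRK1, the kappa opioid receptor gene, was the only gene whose response to MDV3100 differed between the control lines and the clones of replicate 1 in limma's test of the difference itself. The control lines rose by 2.20 and the clones had a mean of 0.72, a difference of 1.48 (adjusted p = 0.0226). It was lost without control 1, when 0 genes were called. The cause was not tested.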

How the results depend on the processing

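None of the 65 named calls reversed under the 16 alternatives that kept the brightest probe set per gene, where they were tested, but the number of calls moved. Other probe sets of a called gene could differ in sign, as for MID1 and MCM4. Against 140 calls, limma gave 91 with an offset of 1, 71 with 32 and 6 with 64. The brightest 25% of probe sets gave 38, quantile normalization 89, no line block 2 and no filter on dim probe sets 0 of 19775 genes, with 2189 at an unadjusted p under 0.05. A spread shared over all 40 arrays gave 1508. Leaving out a line gave 50 to 1876 calls. The filter on the 6 arrays (143), median centring (184), an intensity trend (168), the spread of 12 arrays (195), the actin covariate (111) and every probe set on its own (179 of 22948) stayed within 1.5 times. Of the 65 named calls, 39 were kept without control 1, 62 without control 2, 65 without control 3, and 46 with the actin covariate. The difference between replicates had 0 calls, also with the line as a block, and 0 to 804 when a line was left out. The difference from the clones had 1 call, 1 with an offset of 64, and 0 to 1701 when a line was left out. The causes were not tested. The response was paired by line. No paired analysis was possible by replicate number because each group of the response holds 1 such number. With 3 lines, differences under about 0.77 were not called, and dim genes near the offset are understated.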

Other observations

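Several called genes belonged to no list above and were chosen after their values were seen. Among the falls, FBXO5, the inhibitor of the anaphase-promoting complex also called EMI1, went from 294, 234 and 231 in DMSO to 60.6, 84.1 and 129 under MDV3100 (-1.37; limma adjusted p = 0.0138). KIF22, a kinesin that moves chromosome arms, fell by 0.95, the helicase ERCC6L by 0.94, the minus-end kinesin KIFC1 by 0.79 and WDHD1, a protein of the replication fork, by 0.91. H2AX, the histone variant marked at DNA breaks, fell by 0.93, and its other probe sets ranged from -0.67 to 0.16. Other probe sets gave -0.46 for FBXO5, -0.29 for KIF22, and -0.32 and -0.13 for WDHD1. MAK, a kinase of male germ cells, fell by 1.31, and its groups did not overlap. The orphan receptor GPR158 fell by 1.18, the growth hormone receptor GHR by 1.07, the lysophosphatidic acid receptor LPAR3 by 1.01 and the peptidase DPP4 by 1.01. INPP4B, a phosphatase of phosphoinositides, fell by 0.95, and TNK2, a kinase known to phosphorylate the androgen receptor, fell by 1.05, with a mean response of 0.07 in the same lines of replicate 2. For LPAR3 the other probe set gave -0.41, for DPP4 -0.94 and -0.83, and for INPP4B -0.56 and -0.29. The groups of DPP4 and INPP4B overlapped.

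Among the rises, MECOM, a zinc finger factor of stem cells, rose by 1.12, the homeobox gene HOXC9 by 1.04 and the GATA factor GATA6 by 0.98, each without overlap of the groups. GATA6 had a mean response of -0.01 in replicate 2, and its other probe set gave 0.11. RFX3, a factor of cilia genes, rose by 0.99, TSHZ3 by 0.97, TOX3 by 0.99 and TRPS1 by 0.84. TNFSF15, a ligand of the tumour necrosis factor family, rose by 1.07, the collagen COL5A2 by 1.02, the arrestin-like ARRDC3 by 1.05 and the kinase DAPK1 by 0.89. In other probe sets COL5A2 had 0.24, TSHZ3 0.55, TOX3 0.33 to 1.05, TRPS1 0.43 to 0.90 and RFX3 0.59 to 1.04. PNRC1, a nuclear receptor coactivator, went from 129, 85.5 and 95.7 to 329.7, 322 and 127 and rose by 1.12, least in control 3. These values are descriptions of genes picked for their size.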
